A study of Mus musculus with 24 samples.

Results

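Cytochrome P450 genes were followed in liver and epididymal white adipose tissue (EWAT), a visceral fat depot beside the testis, of male C57BL/6J mice injected with antisense oligonucleotides. A gene was taken as a member when its platform symbol was Cyp followed by a family number, a subfamily letter and a gene number, and Cyp51, Cyp7a1, Cyp7b1, Cyp8b1 and Cyp27a1 were left out. This gave 82 genes of 31 subfamilies, read by 122 probes, of 19057 genes and 45281 probes on the Illumina mouse bead array. Gapmers are antisense oligonucleotides with which RNase H cuts the paired RNA. In each tissue, 4 animals had received SOX6-specific gapmers (S1 to S4) and 4 had received control gapmers (C1 to C4), by intraperitoneal injection 48 hours before sampling. All animals shared the strain, the sex, a chow diet with free access and a light-dark cycle of 12 hours each. The labels give no age, no gapmer dose or sequence and no hour of sampling, and the injection was systemic rather than aimed at a cell type. The labels number the samples of each treatment without saying that each is a separate mouse, or that a number marks the same mouse in both tissues; the numbered samples are called animals here. Repeat arrays of an animal were averaged, so n is 4 per group, read on 14 liver arrays and 10 EWAT arrays.

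Cytochromes P450 are haem enzymes that insert an oxygen atom into their substrates, with electrons passed on by a reductase in the endoplasmic reticulum or by a ferredoxin in mitochondria. Families 1 to 3 oxidise drugs, pollutants, steroids and unsaturated fatty acids, family 4 hydroxylates the far end of fatty acids and eicosanoids, and the remaining families make or break down steroids, retinoids, vitamin D and oxysterols. In liver they are mostly hepatocyte enzymes, many are confined to one zone of the lobule, and many are induced through the receptors CAR, PXR, the aryl hydrocarbon receptor or PPAR alpha. Several differ between male and female mice through the sex-specific rhythm of growth hormone.

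Sox6, the target, averaged 4.83 ± 0.09 in SOX6 livers and 4.98 ± 0.20 in control livers (SD, n = 4 each), on the log2 intensity scale used throughout. The livers read 4.71, 4.81, 4.90 and 4.90 in S1 to S4, against 4.83, 5.24, 4.82 and 5.02 in C1 to C4, and the treatments overlapped. In EWAT, Sox6 read 5.54, 5.12, 5.74 and 4.94 in S1 to S4, against 6.14, 6.19, 5.45 and 5.85 in C1 to C4, and again the treatments overlapped. The log2 difference, SOX6 minus control, was -0.15 in liver and -0.57 in EWAT, with limma adjusted p of 0.738 and 0.841, so a knockdown did not pass the test in either tissue. The Sox6 probe read here was 1 of 5. It was detected on 10 of 10 EWAT arrays, but on 9 of 14 liver arrays and in 4 livers. The liver levels thus lay close to background, which limits what they say about a knockdown. Hepatocyte markers were detected in every liver (9 of 9 with a probe) and adipocyte markers in every EWAT sample (9 of 9), while of the 9 hepatocyte markers 1 to 3 were detected per EWAT sample, with list means of 4.57 to 4.89, and Alb, Fgb, Tat and Cps1 in none. The log2 of the summed hepatocyte markers ran from 7.97 to 8.48 in SOX6 EWAT and from 7.80 to 8.27 in control EWAT. EWAT samples S3 and C3 carried markers of efferent duct and ciliated epithelium, with a list mean of 7.83 in both, against 4.76 to 5.28 in the other 6; 9 of 10 were detected in each, Cubn was detected in no sample, and the log2 of the summed signal ran from 8.74 to 12.42 in SOX6 EWAT and from 8.6 to 12.34 in control EWAT. EWAT samples S2 and S4 carried epididymis markers, with list means of 7.90 and 7.59, and 5 of 8 were detected in each. S3 had a mean of 5.10 with 4 of 8 detected, and S1 and the 4 controls had means of 4.50 to 4.65 with 1 detected; Lcn5, Rnase10 and Spint4 in no sample, and the log2 of the summed signal ran from 7.55 to 14.79 in SOX6 EWAT and from 7.51 to 7.69 in control EWAT. These epithelia lie next to the depot, and their part in the EWAT results was not tested beyond leaving these samples out.

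Of the 82 members, 43 were detected in at least 3 animals in liver and 18 in EWAT, 13 of them in both, so that 48 were tested in at least 1 tissue. The other 34 were detected in at most 2 animals of a tissue and read at most 5.33 anywhere. Among these undetected members were all 5 Cyp2b genes, the classical targets of CAR, Cyp1a1, the best known target of the aryl hydrocarbon receptor, and Cyp11a1 and Cyp21a1, which make steroid hormones in the adrenal and gonads. Of the Cyp2j subfamily only Cyp2j9 was tested, and 6 others stayed near background; of 7 Cyp3a genes, Cyp3a11, Cyp3a13 and Cyp3a25 were tested. The female-typical Cyp3a16, Cyp3a41b and Cyp3a44 were detected on 0 of the 14 liver arrays of these males. A missing signal here says only that the probe did not rise above the negative controls of its array.

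The first comparison asked how the members differed between the tissues, as control liver minus control EWAT in 1 fit over all 16 samples. Of the 48 tested members, 37 were higher and 7 lower in liver at an adjusted p under 0.05, 91.7% in all, against 66.0% of the 11413 genes tested (26.2% higher and 39.8% lower in liver). The fit took genes detected in at least 3 animals of either tissue, and 13 of the 48 members passed this filter in both. For the rest, the filter itself favoured the tissue with the signal. Where EWAT gave no detected signal, the p-value set liver signal against background. The median log2 difference was 3.79 over the members and -0.16 over all genes tested. In SOX6 animals 44 of 48 members passed as well, against 68.0% of all genes. As in any bulk tissue, fewer cells of a type and less RNA per cell cannot be told apart. In 26 members no control EWAT array gave a detected signal, and there only a lower bound of the fold can be given, set against the lowest detected signal of each EWAT array. With undetected genes at their bound, or at 0 where no bound could be given, the median was 3.49 over the members and -0.06 over all genes.

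The drug and steroid hydroxylases of families 2 and 3 made up most of the genes higher in liver. Cyp3a11, the main inducible steroid and drug hydroxylase of mouse liver, averaged 13.25 ± 0.29 in control liver and 4.36 ± 0.05 in control EWAT (SD, n = 4 each), at least 373-fold higher in liver (limma adjusted p = 1.7e-19). Cyp2c70, which makes the muricholic acids of mouse bile, was at least 342-fold higher and Cyp2c37, an epoxygenase of arachidonic acid, at least 320-fold higher. All 9 tested Cyp2c genes passed as higher in liver, none of them detected on a control EWAT array, and the bounds ran from 1.80-fold (Cyp2c40) to 342-fold (Cyp2c70). All 6 tested Cyp2d genes passed too. Of these, Cyp2d22 and Cyp2d40 were detected on every control EWAT array and differed by 3.11 and 4.69 on the log2 scale, Cyp2d10 and Cyp2d13 were at least 307-fold and 11.0-fold higher, and Cyp2d9 and Cyp2d26 were detected on 1 of 5 control EWAT arrays each. Of the 3 Cyp2a genes, Cyp2a5 was at least 223-fold and Cyp2a12 at least 175-fold higher in liver, while Cyp2a4, detected on 1 of 5 control EWAT arrays, averaged 6.24 ± 0.38 in control liver and 4.60 ± 0.16 in control EWAT (SD, n = 4 each). The 3 Cyp3a genes were at least 70.2-fold (Cyp3a13) to 373-fold (Cyp3a11) higher. Among the fatty acid hydroxylases, all 4 Cyp4a genes passed as higher in liver, Cyp4a12a by at least 166-fold and Cyp4a31 by at least 11.5-fold. Cyp1a2, a pericentral enzyme that oxidises aromatic amines and caffeine, was at least 117-fold higher in liver. Cyp26a1, which degrades retinoic acid, was at least 5.12-fold higher, and Cyp17a1, the hydroxylase and lyase of androgen synthesis, at least 4.11-fold higher.

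In 7 members the difference ran the other way. Cyp1b1, an extrahepatic enzyme that hydroxylates oestradiol and retinoids, averaged 4.67 ± 0.21 in control liver, where 1 of 8 arrays detected it, and 8.81 ± 0.49 in control EWAT (SD, n = 4 each). The log2 difference was -4.14 (SE 0.22, limma adjusted p = 4.5e-11), the largest of the 7. Cyp4b1, a lung and adipose enzyme of family 4, differed by -1.96, and its neighbouring pseudogene Cyp4b1-ps2 by -2.0; whether the probes tell this pair apart was not tested. Cyp2s1, an epithelial enzyme, differed by -1.42, and Cyp4f16, a leukotriene and fatty acid hydroxylase by family, by -1.39. The differences of Cyp4f18, the leukotriene hydroxylase of neutrophils, and of Cyp20a1, whose substrate is not known, were -0.50 and -0.47 (limma adjusted p = 0.032 and 0.021), and both calls were fragile: Cyp20a1 lost it without C1, C2 or C4, and Cyp4f18 without C2 or C4, with median centring of the arrays and with no filter on dim probes. The Cyp4f subfamily was thus split, with 3 of 5 tested genes higher in liver (Cyp4f13, Cyp4f14 and Cyp4f15) and 2 lower.

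**Figure D1:**
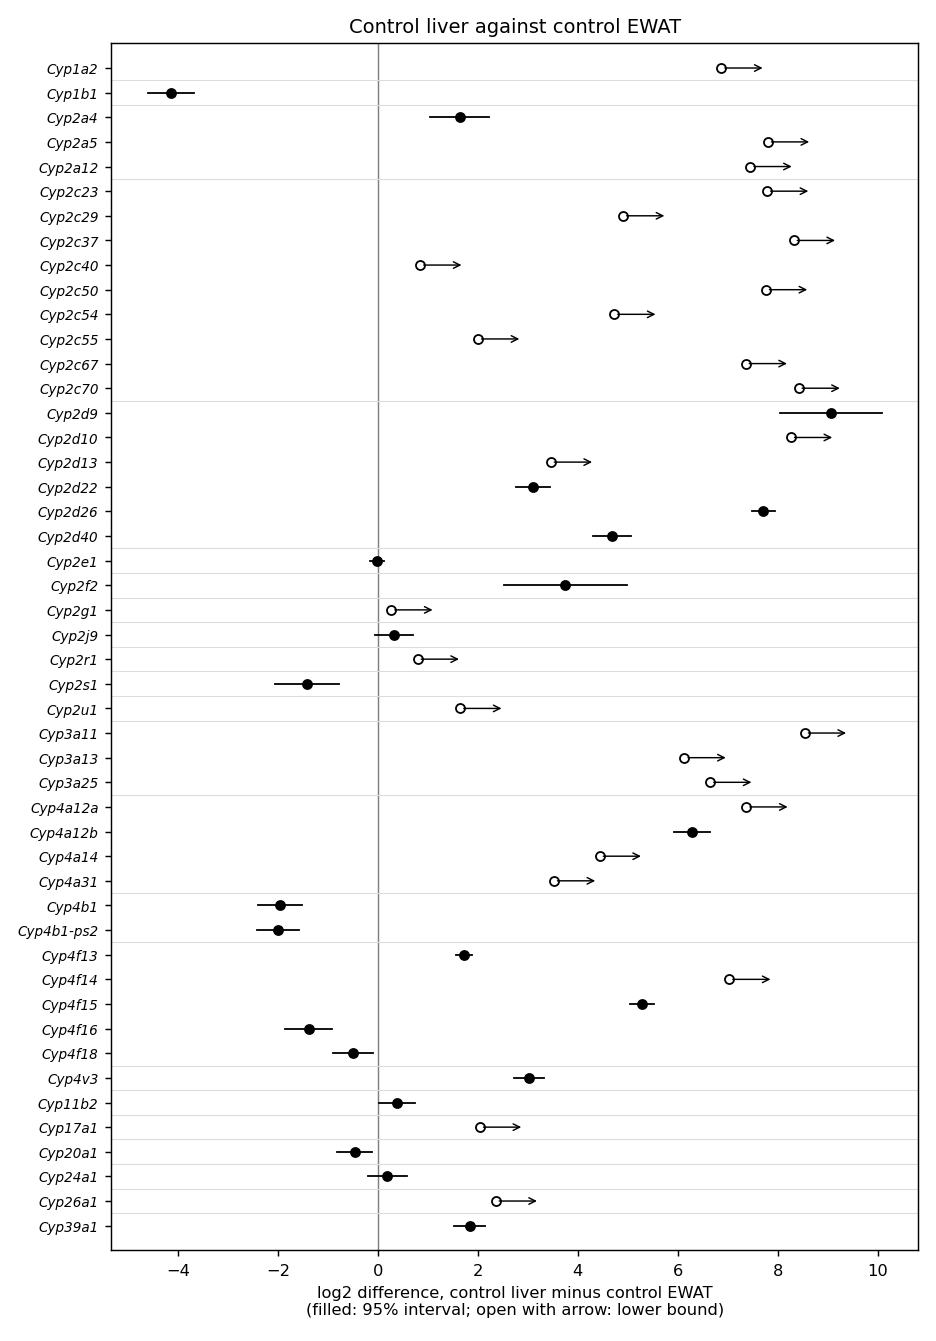
Log2 difference between control liver and control EWAT for the 48 tested members, ordered by subfamily, filled with 95% intervals from limma. Open circles with arrows are lower bounds for the 26 members without a detected signal on any control EWAT array; Cyp1b1 lies farthest to the left at -4.14, with 1 of 8 control liver arrays detected, and Cyp2d9 and Cyp2d26, filled, rest on 1 detected control EWAT array each.

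The call was made in neither direction for 4 tested members. Cyp2e1, the pericentral enzyme that oxidises ethanol and acetone and is also known from fat cells, averaged 14.35 ± 0.04 in control liver and 14.36 ± 0.06 in control EWAT (SD, n = 4 each), a log2 difference of -0.01 with a 95% interval of -0.15 to 0.13. Its signal was 73.5% to 93.6% of the highest probe signal on its array and ranked between 6 and 28 among all probes, so the scale had little room above it in either tissue; whether this held the difference down was not tested. Cyp2j9, a P450 of arachidonic and linoleic acid, differed by 0.32 (95% interval -0.06 to 0.70). Cyp11b2, aldosterone synthase, differed by 0.38 and Cyp24a1, which inactivates vitamin D, by 0.19, and both lay near background in both tissues.

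The promoters of Cyp1b1 and Cyp1a2 are shown because these family members lay on opposite sides of the tissue comparison. In RefSeq (GRCm38.p6), the 250 bases before the start site are chr17:79715062-79715311 (minus strand) for Cyp1b1 and chr9:57683656-57683905 (minus strand) for Cyp1a2. They are printed 5′ to 3′ along the gene, with every CpG in capitals.
Cyp1b1: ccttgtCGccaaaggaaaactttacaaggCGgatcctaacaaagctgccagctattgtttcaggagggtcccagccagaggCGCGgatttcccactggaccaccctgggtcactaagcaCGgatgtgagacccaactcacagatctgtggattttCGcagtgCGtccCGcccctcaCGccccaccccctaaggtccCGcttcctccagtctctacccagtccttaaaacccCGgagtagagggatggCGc
Cyp1a2: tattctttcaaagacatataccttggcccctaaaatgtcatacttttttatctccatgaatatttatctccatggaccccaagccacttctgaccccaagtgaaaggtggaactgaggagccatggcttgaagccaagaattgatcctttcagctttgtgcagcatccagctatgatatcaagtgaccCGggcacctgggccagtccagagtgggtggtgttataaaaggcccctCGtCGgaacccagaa
The Cyp1b1 stretch holds 12 CpGs and the Cyp1a2 stretch 3. A promoter window of 300 bases, 250 before and 50 after the start, was matched for 60 of the 82 members. The median CpG count per window was 2 over 25 members higher in liver (0 to 26), 10.5 over 6 members lower in liver (2 to 20) and 7 over 27025 genes. The members lower in liver were themselves mixed, with 20, 17 and 16 CpGs for Cyp20a1, Cyp2s1 and Cyp1b1 but 5, 3 and 2 for Cyp4b1, Cyp4f18 and Cyp4f16. These counts describe the sequences, and no methylation was measured.

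The second comparison asked what differed in liver 48 hours after SOX6 gapmers. No member passed the adjusted threshold: 0 of 43, against 21 of 8731 genes tested (0.241%). At an unadjusted p under 0.05 there were 11 members, 9 higher and 2 lower in SOX6 livers, 25.6% of those tested, against 9.92% of all genes (4.71% higher and 5.21% lower). In 6 members, 5 higher and 1 lower, the animals of the treatments did not overlap, 6 of 43, against 5.89% of all genes (2.53% higher and 3.36% lower). Yet 21 of 43 differences were positive, against 50.9% of all genes, and the median log2 difference was -0.01 over the members and 0.00 over all genes. The median size of a difference without its sign was 0.14 over the members and 0.11 over all genes. Several members are close paralogs, and whether their probes tell them apart was not tested.

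**Figure D2:**
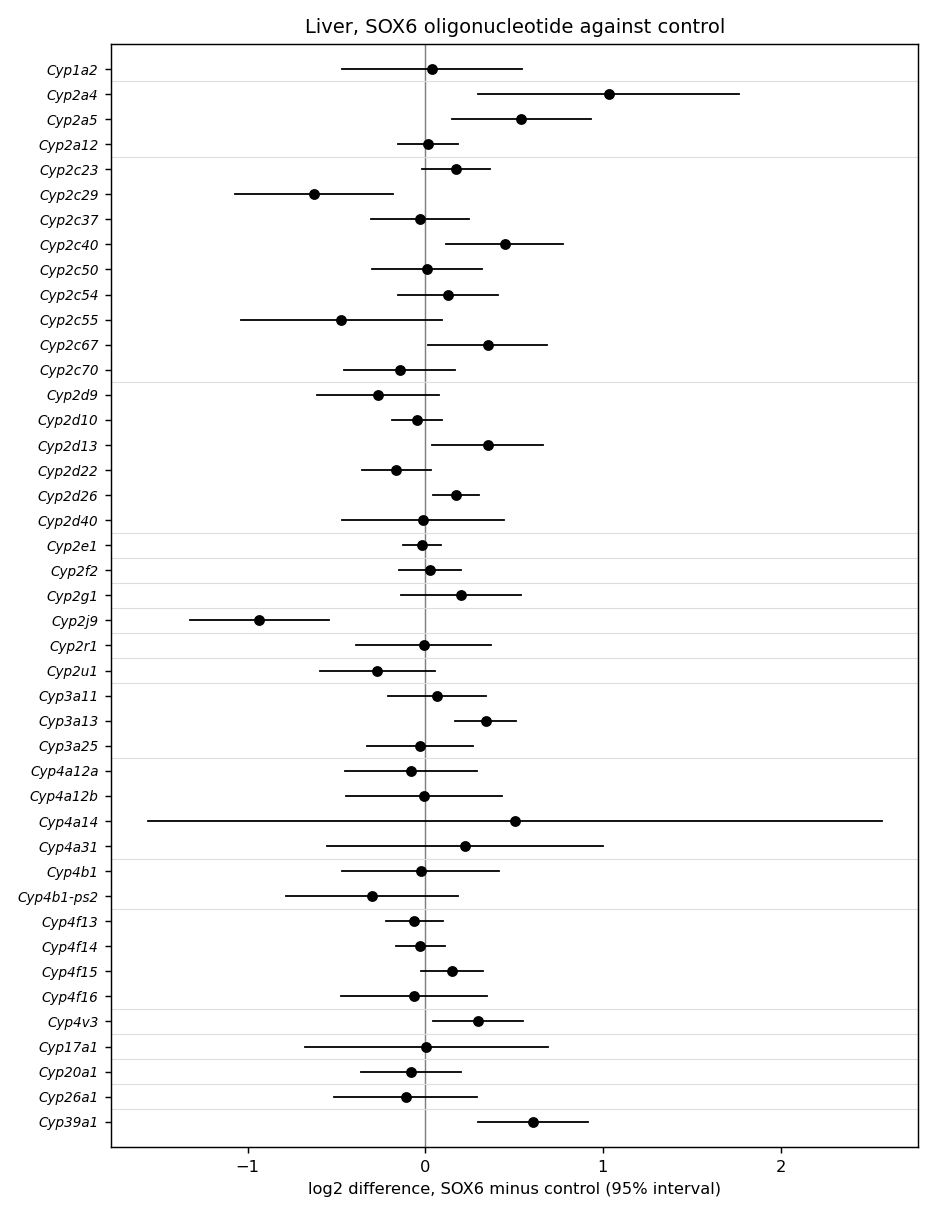
Log2 difference between SOX6 and control livers for the 43 tested members, ordered by subfamily, with 95% intervals from limma. Cyp2a4 (1.03) lies farthest to the right and Cyp2j9 (-0.93) farthest to the left, and Cyp4a14 has the widest interval, from -1.56 to 2.57.

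Among the fatty acid epoxygenases, Cyp2j9 had the smallest p of all members. It read 6.37, 6.75, 6.42 and 6.02 in SOX6 livers S1 to S4, against 7.34, 7.59, 7.45 and 6.92 in control livers C1 to C4. Every SOX6 liver lay below every control liver. The log2 difference was -0.93 (SE 0.18, 95% interval -1.32 to -0.54, limma adjusted p = 0.0822), and within the 4 chips on which arrays were run together it was -0.66, -1.47, -0.84 and -1.03. Cyp2j9 passed with the replicate number as a block (adjusted p = 0.0106), without S2 (adjusted p = 0.0490), without C4 and with unaveraged arrays. It did not pass in 15 of 20 alternatives, with limma adjusted p up to 0.294. Its other probe was detected on 2 of 14 liver arrays and gives no second reading. In EWAT it read 7.73, 7.15, 7.73 and 7.60 in SOX6 animals and 8.07, 7.66, 7.70 and 7.79 in controls, overlapping, with a difference of -0.25 (95% interval -0.62 to 0.12).

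Cyp2c29, an epoxygenase induced through CAR and lying in pericentral hepatocytes, was the other member lower in SOX6 livers at an unadjusted p under 0.05. It read 8.68, 9.45, 8.61 and 8.39 in SOX6 livers and 9.45, 9.24, 9.71 and 9.24 in control livers. S1, S3 and S4 lay below all controls and S2 among them. The log2 difference was -0.63 (SE 0.20, limma adjusted p = 0.312), and without S2 it was -0.85 with an adjusted p of 0.0372. The rest of the Cyp2c subfamily did not share one direction: Cyp2c40 differed by 0.45, Cyp2c67 by 0.35, Cyp2c23 by 0.17, Cyp2c55 by -0.47, Cyp2c70 by -0.14, and Cyp2c37, Cyp2c50 and Cyp2c54 by -0.03, 0.01 and 0.13. Cyp2c40 read 5.72, 6.01, 5.43 and 5.37 in SOX6 livers, against 5.21, 5.19, 5.10 and 5.23 in control livers, close to background but without overlap (limma adjusted p = 0.336). The neighbouring Cyp2c67 read 12.44, 12.68, 12.71 and 11.99 in SOX6 livers, against 12.24, 11.82, 12.17 and 12.19 in control livers, with S4 among the controls. Its second probe gave 0.65. The epoxygenase list did not hold Cyp2c23 under that symbol, so its 0.17 is left out of the list count and median given next. Of the 19 listed genes with a probe, 9 were tested, 4 of them positive, with a median of -0.03.

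Cyp3a13, a minor steroid and drug hydroxylase of the Cyp3a subfamily that is also known from intestine, read 11.03, 11.19, 11.02 and 11.20 in SOX6 livers, against 10.90, 10.71, 10.79 and 10.67 in control livers. All 4 SOX6 livers lay above all controls. The log2 difference was 0.34 (SE 0.08, limma adjusted p = 0.146), the other 2 probes gave 0.33 and 0.36, and the values within the chips were 0.25, 0.43, 0.39 and 0.27. Cyp3a11 and Cyp3a25 differed by 0.07 (95% interval -0.21 to 0.34) and -0.03 (95% interval -0.33 to 0.27). Of 9 tested genes inducible through CAR or PXR, 5 were positive, with a median of 0.01, and neither Nr1i3 (CAR, -0.19) nor Nr1i2 (PXR, 0.19) passed.

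The Cyp2a subfamily, which hydroxylates testosterone, coumarin and nicotine, was positive in all 3 tested genes. Cyp2a5, the coumarin hydroxylase, read 13.14, 12.77, 13.08 and 13.43 in SOX6 livers, against 12.29, 12.27, 13.04 and 12.64 in control livers. C3 overlapped the SOX6 livers. The log2 difference was 0.54 (SE 0.18, limma adjusted p = 0.320), the other 4 probes gave 0.39 to 0.73, and within the chips it was 0.53, 0.78, -0.27 and 0.88, reversed on the chip that held S2 with C3. Cyp2a4, a testosterone hydroxylase that is typical of female liver, read 6.59, 7.99, 6.32 and 6.44 in SOX6 livers, against 5.58, 5.40, 6.17 and 6.05 in control livers, without overlap. Its log2 difference was 1.03 (SE 0.33, limma adjusted p = 0.316), with S2 far above the other SOX6 livers, and 0.64 without S2, a difference that moved by more than 1.5 times with that animal. Cyp2a12, an androgen and bile acid hydroxylase, differed by 0.02.

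Cyp2a4 and Cyp2a5 are described in mouse liver as targets of the clock output factors DBP and TEF, which bind D-box elements. Their promoters are shown because they carry the same D-box variant. In RefSeq (GRCm38.p6), the 250 bases before the start site are chr7:26306942-26307191 (plus strand) for Cyp2a4 and chr7:26835089-26835338 (plus strand) for Cyp2a5, with the match in capitals, 5′ to 3′.
Cyp2a4: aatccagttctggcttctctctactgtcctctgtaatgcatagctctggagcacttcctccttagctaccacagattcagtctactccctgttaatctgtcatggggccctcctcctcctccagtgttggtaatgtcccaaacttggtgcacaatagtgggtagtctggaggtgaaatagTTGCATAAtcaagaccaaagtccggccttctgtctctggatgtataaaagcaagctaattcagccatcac
Cyp2a5: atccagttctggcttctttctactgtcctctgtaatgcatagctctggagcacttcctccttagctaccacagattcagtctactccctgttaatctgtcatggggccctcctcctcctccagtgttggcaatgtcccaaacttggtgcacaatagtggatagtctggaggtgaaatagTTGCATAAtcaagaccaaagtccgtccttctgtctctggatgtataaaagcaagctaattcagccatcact
The match begins 70 bases before the start of Cyp2a4 and 71 bases before that of Cyp2a5, and the windows of these neighbouring paralogs were 98.3% identical over 299 aligned bases. Searched as TTATGCAA or its reverse complement TTGCATAA, this variant stood in 6 of 68 member promoters, alternative start sites included (8.82%), and in 244 of 32851 promoters searched (0.743%). The members were Cyp2a4, Cyp2a5, Cyp2b10, Cyp2b19, Cyp2b23 and Cyp4f14. All but Cyp4f14 lie close together on chromosome 7, so they may not count as independent hits, and the Cyp2b genes were among the untested members. The palindrome TTACGTAA and the variant TTATGTAA, or its reverse complement TTACATAA, stood in 0 member promoters and in 0.119% and 0.938% of all promoters. A match is a run of letters and not a measured binding site. Dbp itself read 12.40, 12.49, 12.30 and 12.10 in SOX6 livers, against 11.52, 11.95, 12.03 and 12.12 in control livers, with S4 just below C4. Tef read 10.47, 10.66, 10.48 and 10.39 in SOX6 livers, against 9.64, 10.21, 10.38 and 10.16 in control livers, without overlap. Its value in S4 (10.385) lay only just above that in C3 (10.383). The log2 differences of Dbp and Tef were 0.42 and 0.40 (limma adjusted p = 0.279 and 0.351), so neither passed. Whether Dbp or Tef had a part in the Cyp2a values was not tested, and the hour of sampling is not known. Cyp4f14, which carries the same variant at another of its 4 start sites and not at the first listed, differed by -0.03.

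The Cyp2d subfamily, which hydroxylates steroids and amine drugs, gave small values. Cyp2d26 read 12.42, 12.38, 12.48 and 12.35 in SOX6 livers, against 12.23, 12.30, 12.22 and 12.19 in control livers. The animals did not overlap although the log2 difference was only 0.18 (SE 0.06, limma adjusted p = 0.339), and its other 2 probes gave 0.13 and 0.15. The transcribed pseudogene Cyp2d13 differed by 0.35 and the brain and liver gene Cyp2d22 by -0.16. Cyp2d9, the male-typical testosterone hydroxylase, read 13.88, 13.10, 13.86 and 13.81 in SOX6 livers, against 13.79, 14.08, 13.90 and 13.94 in control livers. S2 alone stood low, and the log2 difference of -0.27 (95% interval -0.61 to 0.08) became -0.08 without it.

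Cyp39a1, an oxysterol hydroxylase on a side route to bile acids, read 6.36, 6.56, 6.39 and 6.79 in SOX6 livers, against 6.22, 5.89, 5.79 and 5.77 in control livers. All SOX6 livers lay above all controls, C1 being the highest of these. The log2 difference was 0.61 (SE 0.14, 95% interval 0.30 to 0.92, limma adjusted p = 0.155), and the chips gave 0.43, 0.94, 0.83 and 0.33. Its second probe was detected on 6 of 14 liver arrays and gave 0.01, so the value rests on 1 probe. In EWAT, where Cyp39a1 was detected on 3 of 10 arrays, the difference was 0.12 (95% interval -0.29 to 0.53).

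**Figure D3:**
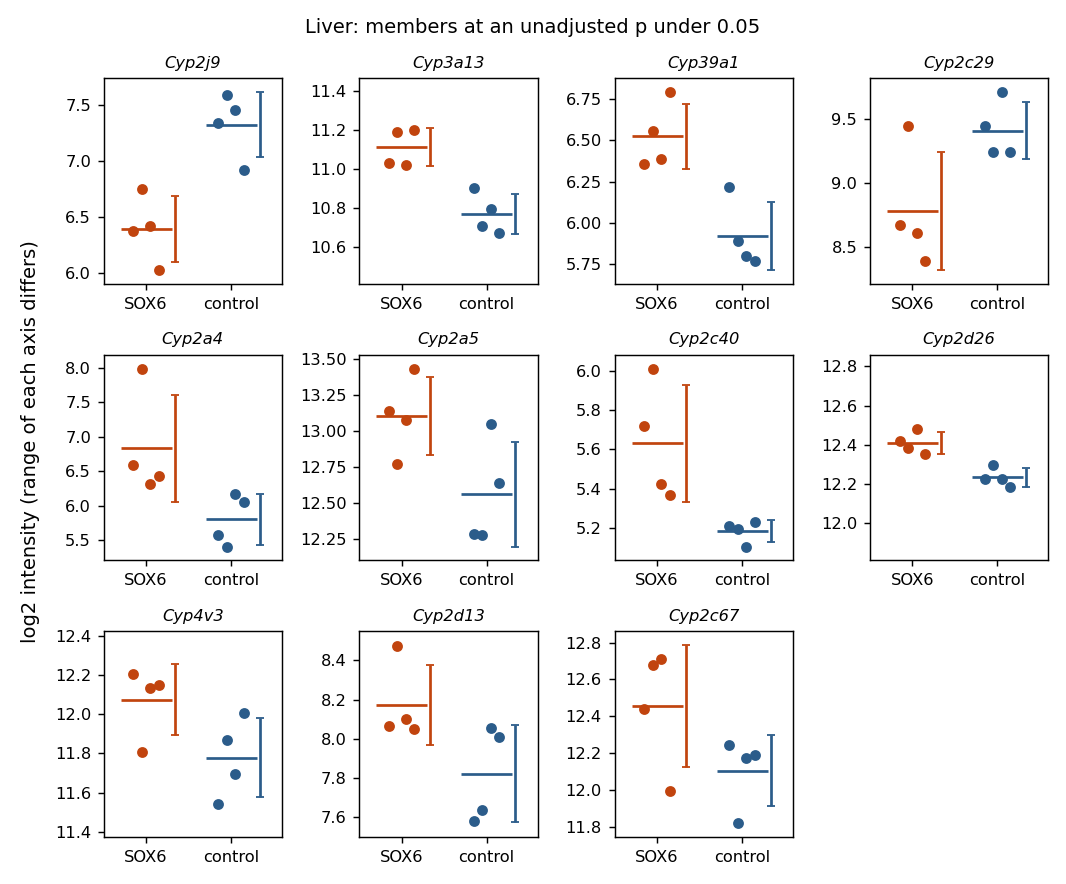
Log2 intensity in each liver for the 11 members at an unadjusted p under 0.05 in liver, SOX6 left and control right in each panel; lines are means and bars 1 SD (n = 4), and the vertical range differs between panels. Cyp2j9, Cyp3a13, Cyp39a1, Cyp2a4, Cyp2c40 and Cyp2d26 have no overlap between treatments, and S2 is the topmost SOX6 point of Cyp2a4 and Cyp2c29.

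Among the fatty acid hydroxylases of family 4, Cyp4a14 had the widest span between livers of the 43 tested members. Cyp4a14, a strongly fasting- and PPAR alpha-induced omega-hydroxylase, read 8.65, 11.56, 10.69 and 6.74 in SOX6 livers, against 9.91, 8.28, 10.02 and 7.40 in control livers, a span of 4.82 log2 units among animals on 1 diet. High and low livers stood in both treatments, and the log2 difference was 0.50 (95% interval -1.56 to 2.57) with all animals and -0.21 without S2. Cyp4a31, of the same cluster, read 8.14, 8.14, 8.86 and 7.34 in SOX6 livers, against 8.92, 7.46, 7.67 and 7.52 in control livers. Cyp4a12a and Cyp4a12b, arachidonic acid hydroxylases typical of males, differed by -0.08 and -0.01. Cyp4v3, a hydroxylase of medium-chain and polyunsaturated fatty acids, read 12.20, 11.81, 12.13 and 12.15 in SOX6 livers, against 11.54, 11.87, 11.70 and 12.01 in control livers, overlapping in S2 (log2 difference 0.30, limma adjusted p = 0.407). Cyp4f13, Cyp4f14, Cyp4f15 and Cyp4f16 differed by -0.06, -0.03, 0.15 and -0.06. Over the 10 tested family 4 hydroxylases on the list, 4 were positive, with a median of -0.02. Cyp4b1 and Cyp4b1-ps2 were highest in control liver C1, at 6.01 and 6.94, against 4.97 to 5.49 and 5.81 to 6.01 in the other 7 livers. C1 also had the highest list mean of macrophage markers, 6.96 against 5.72 to 6.46 in the other livers, and of endothelial markers, 6.35 against 5.66 to 5.93. Of 7 macrophage markers 6 were detected in every liver, Cd5l was not, and the log2 of their summed signal ran from 9.12 to 9.63 in SOX6 livers and from 8.85 to 10.40 in control livers. Of 5 endothelial markers 4 were detected, Kdr was not, and the sum ran from 8.16 to 8.44 in SOX6 livers and from 8.13 to 8.90 in control livers. The part of these cells in the Cyp4b1 values was not tested. Without C1 the Cyp4b1-ps2 difference was -0.04, against -0.30 with all animals.

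By known sex bias, 11 female-typical genes had a probe and 5 were tested in liver: Cyp17a1, Cyp26a1, Cyp2a4, Cyp2c40 and Cyp39a1. Cyp2b9, Cyp2b10, Cyp2b13, Cyp3a16, Cyp3a41b and Cyp3a44 were detected on 0 of 14 liver arrays. Of the 5 tested genes, 4 were positive. At an unadjusted p under 0.05, 3 were higher in SOX6 livers, where 4.71% of all genes were higher at that p. The median log2 difference of the 5 genes was 0.45, beside 0.00 over all genes tested. As the median of these 5 genes relative to the control mean, the livers read 0.44, 0.64, 0.47 and 0.18 in S1 to S4, against 0.02, -0.03, -0.08 and 0.04 in C1 to C4. The 5 male-typical genes (Cyp2d9, Cyp2f2, Cyp2u1, Cyp4a12a and Cyp4a12b) gave 0.14, -0.23, -0.07 and -0.18 in S1 to S4, against 0.02, 0.12, -0.37 and 0.16 in C1 to C4. The female-typical medians did not overlap between treatments whereas the male-typical ones did. This is no separate result, since 3 of the 5 female-typical genes largely set the median. These 3, Cyp2a4, Cyp2c40 and Cyp39a1, are among the members without overlap described above, while Cyp17a1 and Cyp26a1 differed by 0.01 and -0.11. All of this is a description of short lists. Each liver was the highest of the 8 in 3 to 8 of the 43 members, most often C1 (8) and then S2 (7), and the lowest in 2 to 10, most often S2 (10) and then C4 (7). Liver S2 had the highest hepatocyte marker mean, 12.19, against 11.88 to 12.05 in the others.

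**Figure D4:**
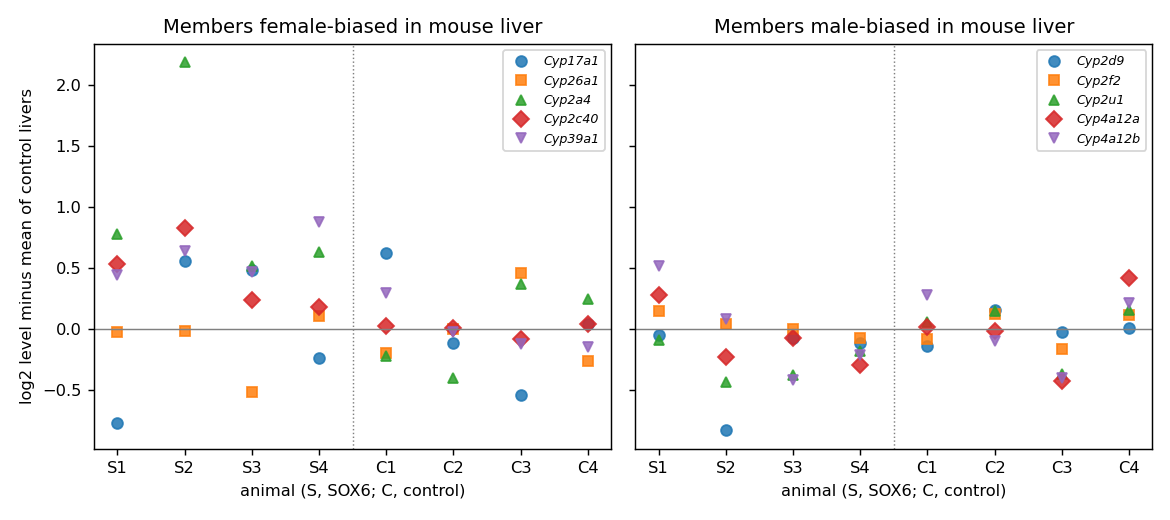
Level of each sex-biased member in each liver, as log2 level minus the mean of the control livers, SOX6 animals left of the dotted line and controls right of it. Liver S2 has the highest Cyp2a4 value (2.19) and the lowest Cyp2d9 value (-0.83). In every SOX6 liver Cyp2a4, Cyp2c40 and Cyp39a1 lie above 0, while Cyp17a1 lies below 0 in S1 and S4 and Cyp26a1 in S1, S2 and S3.

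Of the zonal genes, 10 on the pericentral list were tested (with Cyp27a1, which is no member), 6 of them positive, with a median of 0.01, and the periportal Cyp2f2, which oxidises naphthalene, differed by 0.03 in liver. Cyp1a2 read 11.84, 10.85, 11.79 and 12.00 in SOX6 livers, against 11.19, 11.50, 11.82 and 11.82 in control livers, and its log2 difference of 0.04 had a 95% interval of -0.47 to 0.54. Among the 25 tested partners and regulators of P450 enzymes, such as electron donors, haem synthesis enzymes and transcription factors, 0 passed and 14 were positive. Cyb5r3 and Cyb5a, which carry electrons through cytochrome b5, differed by -0.21 and 0.09, Cpox, a step of haem synthesis, by 0.31, and Nr1h4, the bile acid receptor FXR, by -0.21.

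In EWAT, 0 of the 18 tested members passed the adjusted threshold, against 0 of 10935 genes (0.00%). At an unadjusted p under 0.05, limma gave 1 member (5.56%), lower in SOX6 samples, against 546 genes (4.99%; 2.07% higher and 2.93% lower). The same share of members, 1 of 18, did not overlap between treatments, against 304 genes (2.78%; 0.741% higher and 2.04% lower). The median log2 difference was -0.03 over the members and -0.02 over all genes, with 7 of 18 members positive, against 45.1% of all genes. The member was Cyp2d40, a liver and kidney gene of the Cyp2d cluster. In 4 of 23 alternatives no member had an unadjusted p under 0.05. Leaving out EWAT samples S2 and S4, or S2, S3, S4 and C3, was among these, and without S1 there were 2. Cyp2d40 read 5.42, 5.0, 5.39 and 5.47 in SOX6 EWAT, against 5.90, 5.50, 5.92 and 5.99 in control EWAT. All 4 SOX6 samples lay below all controls, though S4 (5.47) lay only just below C2 (5.50). The log2 difference of the means was -0.51 (SE 0.17, 95% interval -0.89 to -0.12, limma adjusted p = 0.841). In liver Cyp2d40 differed by -0.01.

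Cyp1b1, the member with the largest excess in fat, read 9.01, 9.47, 9.03 and 9.59 in SOX6 EWAT, against 9.70, 8.75, 9.30 and 8.80 in control EWAT, fully interleaved (log2 difference 0.13, 95% interval -0.38 to 0.65). Cyp4b1 averaged 8.14 ± 0.24 in SOX6 EWAT and 8.14 ± 0.17 in control EWAT (SD, n = 4 each), and Cyp4b1-ps2 8.83 ± 0.18 in SOX6 EWAT and 8.94 ± 0.21 in control EWAT. Cyp2e1 differed by -0.02 with a 95% interval of -0.23 to 0.19. Of the remaining family 4 genes, Cyp4f18, Cyp4f16, Cyp4f13 and Cyp4v3 differed by 0.28, -0.20, -0.10 and -0.19, all overlapping. Cyp2f2, an enzyme of lung club cells and liver, read 9.02, 10.91, 9.81 and 9.37 in SOX6 EWAT, against 12.02, 9.15, 9.09 and 9.28 in control EWAT, so that C1 stood apart from all other samples.

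**Figure D5:**
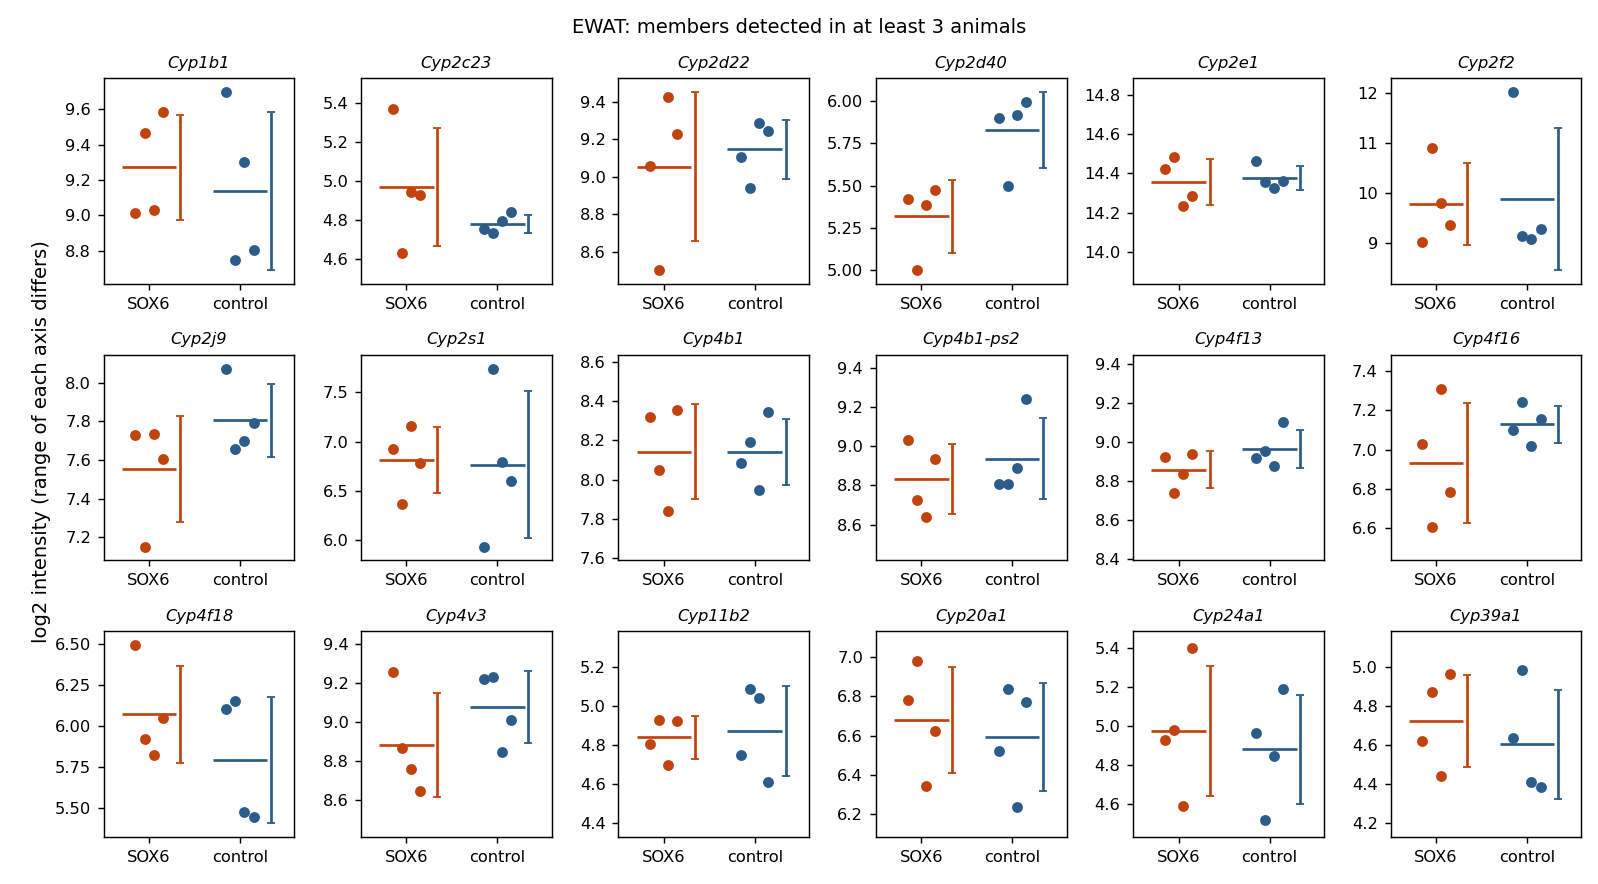
Log2 intensity in each EWAT sample for the 18 members tested in EWAT, SOX6 left and control right in each panel; lines are means and bars 1 SD (n = 4), and the vertical range differs between panels. Cyp2d40 is the only panel without overlap between treatments, and 1 control sample of Cyp2f2 stands alone at 12.02.

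Some members were high in the EWAT samples with duct markers, whichever treatment those had received. Cyp2d9 was detected in EWAT samples S3 and C3 only, at 6.85 and 6.91, against 4.24 to 4.55 in the other 6 samples. Cyp4f15 was likewise highest in S3 (5.22) and C3 (5.09), against 4.57 to 4.78 in the others. Hnf4a, a transcription factor of liver, kidney and proximal epithelia, read 8.46 in S3 and 8.49 in C3, against 5.03 to 5.22 in the other 6. These were the samples with efferent duct and ciliated markers. They also had the highest hepatocyte marker means of the EWAT samples, 4.84 in S3 and 4.89 in C3, against 4.57 to 4.78 in the others, with 3 of 9 detected in each. The part of either cell type in these values was not tested. Leaving out S2 and S4, S3 and C3, or all 4 gave 0 members past the adjusted threshold in EWAT each time. Without S2 and S4 the Cyp4f16 difference was 0.04.

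Whether members responded differently in liver and EWAT was tested as the difference between the treatment effects. No member passed, 0 of 48 against 2 of 11413 genes (0.0175%), and 8 members (16.7%) had an unadjusted p under 0.05, against 6.33% of all genes. These 8 were Cyp2c40 (0.49), Cyp2c29 (-0.62), Cyp2a4 (1.0), Cyp39a1 (0.50), Cyp2j9 (-0.62), Cyp4v3 (0.49), Cyp2a5 (0.54) and Cyp3a13 (0.29), as response in liver minus response in EWAT, all of them among the 11 liver members above. Cyp2a5, Cyp2c29, Cyp2c40 and Cyp3a13 were undetected on every control EWAT array, so that their control level in EWAT was not above background. Of these, Cyp2a5 alone was detected in SOX6 EWAT, on 2 of 5 arrays. Cyp2a4 and Cyp39a1 were each detected on 1 of 5 control and 2 of 5 SOX6 EWAT arrays, so their EWAT levels also lay near background. The count of 8 rested on single animals: it was 2 without C2, 3 without S3, 5 without S4 or without C1, and 6 or 7 without each of the others. It was 5 with EWAT samples S2 and S4 left out, 5 with S3 and C3 left out, and 2 with all 4 left out. Cyp2j9 and Cyp4v3 were detected on all arrays of both tissues, with a limma adjusted p of 0.716 for each difference in response.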

How the data were processed

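Total RNA of 16 tissue samples was hybridised to 24 Illumina bead arrays on 4 chips of 6 arrays each, with both treatments of both tissues on every chip. The deposited intensity values are probe signals after background subtraction, not normalized between arrays, and 25.7% to 37.0% of them lay below 0. A detection p-value per probe was deposited beside each intensity, and the authors' processed values are on a log2 scale. GenomeStudio is named in the submitters' processing notes, without a version.

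Each tissue was normalized on its own with the neqc function (limma 3.58.1, R 4.3.3), which takes background from detection p-values, adds an offset (16), equalises array quantiles and returns log2 values, and repeat arrays, which correlated at r of 0.992 to 0.995, were averaged per animal. A gene was tested when a probe had a detection p-value under 0.05 on every array of an animal in at least 3 animals, and its brightest such probe stood for it. Differences were tested two-sided over all genes with limma's lmFit, then eBayes with trend, adjusted by Benjamini-Hochberg at 0.05. Tissue and interaction contrasts came from 1 fit after joint normalization. The number of arrays and animals limits the precision. The p-values measure only the spread between the numbered samples, which may be technical. The 1 fit over both tissues took the 16 samples as independent; samples of one number deviated together across tissues with correlations of -0.04 to 0.16. Probes were named by the platform's annotation, 34885 with 1 gene, 18 with several and 10378 with none; members were matched by Entrez ID to RefSeq. The members, gene lists and marker lists were chosen with earlier results of these data known. Members were named in the text by smallest p per tissue, largest tissue difference, smallest p per list or a span of at least 2 log2 units, and others as part of their subfamily. Alternatives were other normalizations, offsets, filters, probe summaries, variance models, chip terms and blocks, the authors' log2 values, and leaving out animals.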

Additional observations from a re-analysis of the deposited data

Results flagged for a closer look

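Of 100 groups of 4 animals examined, 9 held an animal far from the others, where chance gives about 5. In SOX6 liver S2, Cyp2a4 read 7.99 against 6.32 to 6.59 in the other SOX6 livers, the pseudogene Cyp2d13 read 8.47 against 8.05 to 8.10, Cyp2d22 read 11.52 against 11.83 to 11.89, and Cyp2d9 read 13.10 against 13.81 to 13.88. Cyp2c70 stood low in 1 liver of each treatment, at 12.64 in S3 against 13.13 to 13.20 in the other SOX6 livers, and at 12.81 in C3 against 13.26 to 13.33 in the other control livers. Cyp2a12 read 12.41 in control liver C4 against 12.11 to 12.16 in the other control livers, and Cyp2c67 read 11.82 in control liver C2 against 12.17 to 12.24. In EWAT, Cyp2f2 read 12.02 in control C1 against 9.09 to 9.28 in the other control samples.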

How the results depend on the processing

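The liver count of 0 members past the adjusted threshold was the least stable. It was 1 (Cyp2j9) with the replicate number as a block, 4 (Cyp2a4, Cyp2c29, Cyp2j9 and Cyp3a13) with arrays not averaged and chip as a term, 3 (Cyp2j9, Cyp39a1 and Cyp3a13) with arrays not averaged and no chip term, and 1 (Cyp2j9) at a threshold of 0.1. Leaving out each animal in turn gave 0 to 2, with Cyp2c29 and Cyp2j9 without S2 and Cyp2j9 without C4. Why these calls changed was not tested. The direction of every named difference that passed a test held under each alternative run. The EWAT and interaction counts past the adjusted threshold were 0 under every alternative, and the tissue count ran from 42 to 46. Same-numbered SOX6 and control samples deviated together with correlations of -0.04 to 0.33 in liver and -0.05 to 0.66 in EWAT. S1 and S4 in liver and S3 and S4 in EWAT correlated best with their own number. Since not every pair in a tissue passed 0.1, the numbers were not taken to pair animals, and the block changed no count in EWAT, the interaction or the tissue contrast by over 1.5 times. The authors' log2 values gave 0 liver and 0 EWAT members, and 11 liver members at an unadjusted p under 0.05. Dim probes limit the small members: Cyp2c40 and the fold bounds in EWAT rest on signals close to background.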
